A study of Mus musculus with 6 samples.

Results

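Inha, Inhba, Inhbb, Fst, Amh, Amhr2, Fshr, Acvr1b, Acvr2a and Gata4 encode the hormones, receptors and a transcription factor through which Sertoli cells, the somatic support cells of the seminiferous tubule, take part in inhibin, activin, anti-Müllerian hormone (AMH) and follicle-stimulating hormone (FSH) signalling. Every probe set that the platform annotation assigns to exactly 1 of these 10 genes was taken, which gave 18 of the 45037 probe sets on the array, and 16 of the 18 were bright enough to be tested. RNA of whole testes was compared between Dazap1 mutants homozygous for the floxed with Neo allele (Fn, 3 samples) and wild-type mice (Wt, 3 samples), all at postnatal day 21 (P21) and on a mixed C57BL/6 and 129 background. DAZAP1 is a nuclear RNA-binding protein of the hnRNP family, and according to the methods and introduction of the study the Fn allele is not a null but makes an aberrant protein, most homozygotes die around birth and survivors grow slowly. The labels call the samples biological replicates without saying whether a sample is 1 animal, and no treatment was given. Each sample was hybridised to a separate Affymetrix mouse array read in 1 colour.

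FSH from the pituitary acts on FSHR, a receptor that Sertoli cells alone carry in the testis, and raises cAMP in them. Sertoli cells secrete inhibin, a dimer of the alpha subunit (Inha) with a beta A (Inhba) or beta B (Inhbb) subunit, which holds back FSH release. Dimers of beta subunits alone are activins, which signal through the type II receptor ACVR2A and the type I receptor ACVR1B to SMAD2 and SMAD3, and follistatin (Fst) binds and neutralises activins. AMH is made by immature Sertoli cells, its production declines before puberty, and it signals through AMHR2. GATA4 is a zinc finger transcription factor of Sertoli and Leydig cells.

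RefSeq promoter sequences (build GRCm38.p6) were found for 7 of the 10 genes: Inha, Inhba, Inhbb, Amhr2, Fshr, Acvr1b and Acvr2a. Each was searched on both strands, from 250 bases before to 50 bases after the start, for the E-box CACGTG, for the steroidogenic factor 1 (SF-1) site AAGGTCA, for a GATA site (AGATAA, or AGATAG, or TGATAA, or TGATAG) and for the cAMP response element TGACGTCA. The words do not overlap one another in these windows. For Inha, Inhba and Amhr2 the start used lies downstream of the first base of the RefSeq gene, so their windows fall inside the gene span. Amhr2 begins at base 102445002 and its window at 102445117. CACGTG, the word that upstream stimulatory factors bind in Fshr promoters, was present in Fshr, starting 61 bases before the start, and in Acvr1b, starting 54 bases before it, while 7.15% of 32851 promoters of the same length held it. AAGGTCA stood in Amhr2, 231 bases before the start (4.72% of promoters), and a GATA site stood in Inhbb, 27 bases before the start, and in Amhr2, 199 bases before it (29.8% of promoters). TGACGTCA occurred in 0 of the 7 (1.79% of promoters). A match describes the letters and is not a measured binding site. The 250 bases before the start are given for Fshr and Acvr1b, which share the E-box and whose probe sets differed in their change, and for Amhr2, the brightest of the 10 genes. Capitals mark the matched words.
Fshr (chr17:89200676-89200925, - strand): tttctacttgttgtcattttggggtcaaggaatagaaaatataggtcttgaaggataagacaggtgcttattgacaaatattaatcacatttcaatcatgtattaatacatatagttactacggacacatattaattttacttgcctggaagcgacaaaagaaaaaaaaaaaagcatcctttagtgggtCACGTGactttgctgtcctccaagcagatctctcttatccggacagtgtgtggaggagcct
Acvr1b (chr15:101173822-101174071, + strand): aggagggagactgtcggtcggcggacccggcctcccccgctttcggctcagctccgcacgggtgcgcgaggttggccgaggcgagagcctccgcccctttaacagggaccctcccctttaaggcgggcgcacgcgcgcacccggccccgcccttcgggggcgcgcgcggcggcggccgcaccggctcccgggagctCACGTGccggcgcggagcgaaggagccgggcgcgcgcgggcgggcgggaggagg
Amhr2 (chr15:102445117-102445366, + strand): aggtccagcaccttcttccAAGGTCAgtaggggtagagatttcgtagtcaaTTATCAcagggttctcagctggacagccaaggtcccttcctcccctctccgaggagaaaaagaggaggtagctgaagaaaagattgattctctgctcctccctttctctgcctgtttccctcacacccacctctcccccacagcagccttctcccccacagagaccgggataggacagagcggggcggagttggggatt

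The deposited values are MAS5 signals, which give the brightness of each probe set on a linear scale. Array medians were 90.0 to 105.2 in Fn and 86.3 to 89.9 in Wt testes. The log2 signals were compared with limma, with p-values adjusted by Benjamini-Hochberg over those 27022 probe sets whose geometric mean signal reached 48.0, and a change was called at an adjusted p under 0.05. A gene with several probe sets was counted by its brightest one, which gave 13447 genes. Dazap1 itself was lower in Fn, from 2537.6 to 2819.8 in Fn and from 4323.0 to 5045.7 in Wt testes (log2 change -0.77, adjusted p = 6.7e-05 from limma). The median change of all genes on the deposited scale was 0.32 toward Fn, 0.25 with quantile-normalised arrays and 0.17 with median-centred arrays, so changes are also given relative to 0.32.

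Transcripts of the FSH receptor, of all 3 inhibin and activin subunits, of follistatin and of GATA4 gave higher signals in Fn than in Wt testes, and the AMH receptor gene and 1 of the 2 Acvr2a probe sets did so by less. On the deposited scale 13 of the 16 probe sets tested were higher in Fn, 1 was lower and 2 were not called, where 41.8% of all probe sets tested were higher and 20.2% lower. By gene, 8 of 10 were higher, 0 were lower and Amh and Acvr1b were not called, against 44.9% of all genes higher and 24.7% lower. In 13 of the 16 probe sets every Fn signal lay above every Wt signal and in 1 every Fn signal lay below, as in 46.6% and 22.1% of all probe sets tested. The median log2 change of the 10 genes was 0.78, which is 0.46 above the median of all genes. Relative to that median 6 of the 10 genes were higher (Inha, Inhba, Inhbb, Fst, Fshr and Gata4) and 1 was lower (Acvr1b), against 25.8% of all genes higher and 33.9% lower. Whole testes were measured, so more or fewer Sertoli cells, more or fewer other cells beside them and more or less RNA per cell cannot be told apart. The authors were concerned that growth retardation might leave spermatocytes of Fn testes at P21 less advanced than those of Wt testes. They also state that at P21 pachytene spermatocytes prevailed in testes of both genotypes, with haploid spermatids few or absent.

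**Figure D1:**
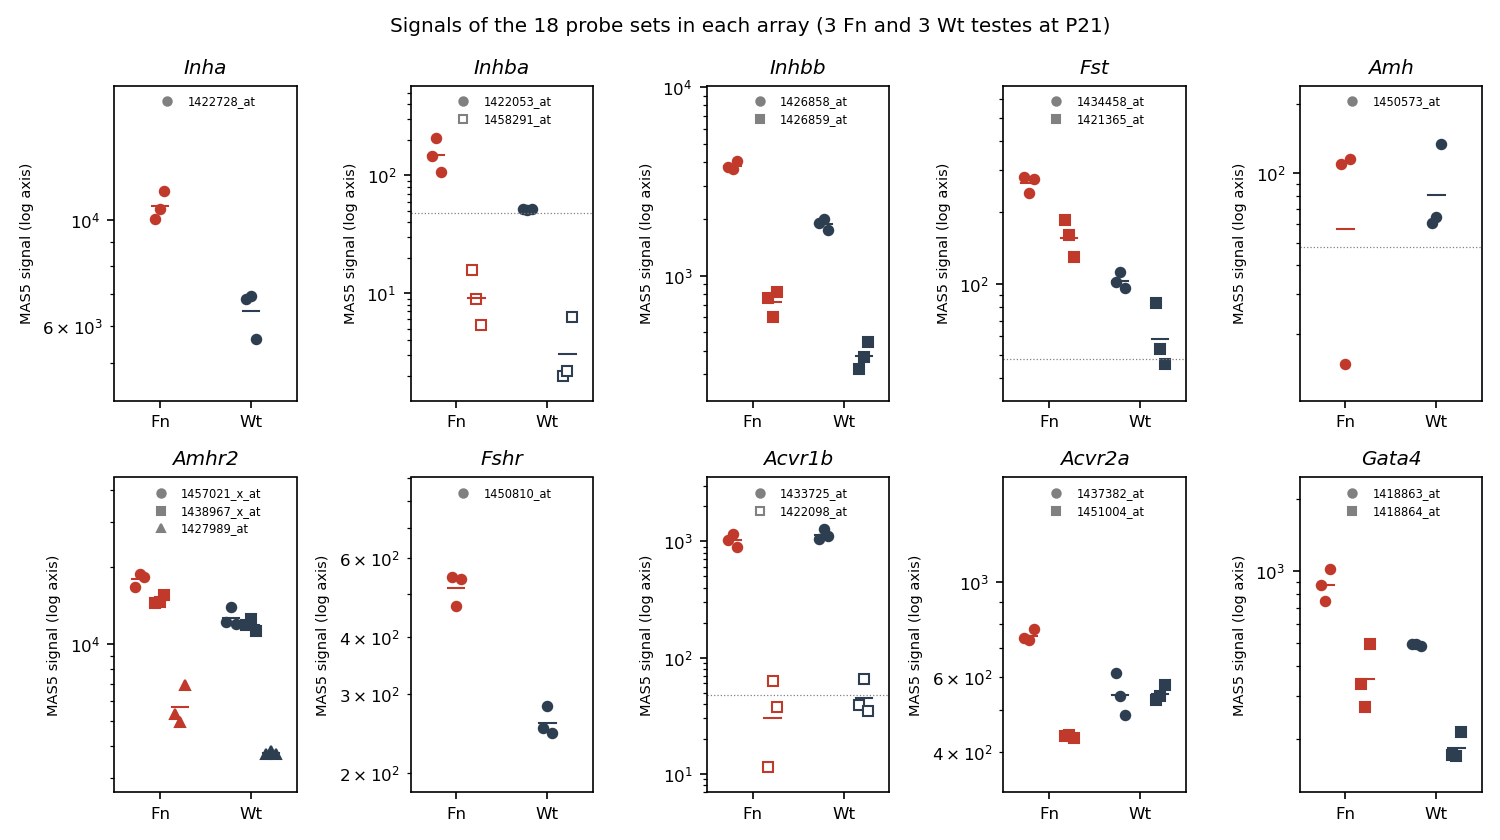
MAS5 signal on a log axis of each of the 18 probe sets in the 3 Fn arrays (red) and the 3 Wt arrays (dark blue), 1 panel per gene, with symbols for the probe sets of a gene and a bar at their geometric mean. Open symbols are the 2 probe sets too dim to be tested and the dotted line is the signal of 48.0 needed on average. The Fn points of Inha, Inhbb, Fst, Amhr2, Fshr and Gata4 stand above all Wt points of the same probe set, those of Amh and Acvr1b are mixed with them, and the 2 probe sets of Acvr2a run in opposite directions.

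Inha, the alpha subunit without which no inhibin is formed, was among the brightest of these transcripts. Its signal was 10047, 10549 and 11543 in the Fn arrays, against 6827.6, 6939.2 and 5616.9 in the Wt arrays. The groups did not overlap, and the lowest Fn signal was well above the highest Wt signal. The ratio of geometric means was 1.66 and the log2 change 0.73 (standard error 0.094, adjusted p = 0.00013 from limma). Relative to the median of all genes it was 0.41 (adjusted p = 0.005).

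Inhbb, the beta B subunit, was read by 2 probe sets that moved alike. The brighter (1426858_at) gave 3772.8, 3681.8 and 4060.3 in Fn, against 1913.5, 1996.8 and 1749.6 in Wt testes. The 3 Fn signals were close to one another and about 2.04 times the Wt signals, which is a difference of 1.03 on the log2 scale (standard error 0.087, adjusted p = 1.1e-05 from limma). The dimmer (1426859_at) gave 757.2, 604.1 and 822.8 in Fn, against 319.4, 370.8 and 443.5 in Wt testes, again without overlap (log2 change 0.95, adjusted p = 0.00084). Set against all genes the 2 changes were 0.70 (adjusted p = 0.00012) and 0.62 (adjusted p = 0.011). Adipocytes also express Inhbb. The summed signal of the 6 adipocyte markers with a probe set was 5924.4 to 11847.3 in Fn and 1388.2 to 5322.3 in Wt testes. Of the 5 tested, 4 were higher, beside 44.9% of all genes, and relative to the median of all genes 3 were, beside 25.8%. The part of fat in the Inhbb signal was not tested.

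Inhba, the beta A subunit and so a part of activin A, was dim. Its tested probe set (1422053_at) gave 146.3, 206.5 and 107.7 in Fn, against 52.2, 50.5 and 51.7 in Wt testes. The Wt signals lay just over the level needed for the test, and the Fn signals were spread but all above them. The ratio was 2.88 and the log2 change 1.53 (standard error 0.28, adjusted p = 0.0011 from limma), and 1.20 relative to the median of all genes (adjusted p = 0.0055). A second probe set (1458291_at), with 15.6, 8.9 and 5.4 in Fn and 2.0, 2.2 and 6.3 in Wt testes, overlapped and was too dim to be tested.

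Fst, the activin-binding protein, was likewise dim, and its 2 probe sets moved alike. The brighter (1434458_at) gave 282.4, 240.7 and 276.1 in Fn, against 101.7, 112.0 and 96.0 in Wt testes, a ratio of 2.58. The second (1421365_at) gave 185.2, 160.0 and 129.4 in Fn, against 82.6, 53.1 and 45.7 in Wt testes, a ratio of 2.67. Neither overlapped between genotypes. The log2 changes were 1.37 (standard error 0.17, adjusted p = 0.00012 from limma) and 1.42 (standard error 0.28, adjusted p = 0.0018), and relative to the median of all genes 1.04 and 1.10. Among the 27022 probe sets tested, 97.9% and 98.3% had a smaller change than these 2, and 98.9% a smaller change than Inhba.

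Amh, a hormone of immature Sertoli cells, gave no call. Its probe set (1450573_at) read 110.3, 14.9 and 116.0 in Fn, against 60.6, 64.8 and 134.3 in Wt testes. The groups overlapped, and the signal of Fn replicate 2 was far under the other 5. The log2 change was -0.49 (standard error 0.72, 95% confidence interval -2.10 to 1.12, adjusted p = 0.57 from limma), and without Fn replicate 2 it was 0.49 (adjusted p = 0.28). The interval is wide enough to hold both a fall and a rise of 2-fold.

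Amhr2, the type II receptor for AMH, had the brightest signals of the 10 genes and changed little beyond the shift of all genes. Its brightest probe set (1457021_x_at) gave 16713.5, 18826.9 and 18382.2 in Fn, against 12247, 14014.9 and 11973.1 in Wt testes. The second (1438967_x_at) gave 14545.6, 14622.2 and 15584.6 in Fn, against 11913, 12517.1 and 11221.9 in Wt testes. The third (1427989_at) gave 5327.8, 4975.2 and 6904.8 in Fn, against 3713.2, 3830.3 and 3728.0 in Wt testes. None of the 3 overlapped between genotypes, and the ending x_at marks probes that may also match other transcripts. The log2 changes were 0.50 (adjusted p = 0.00038 from limma), 0.33 (adjusted p = 0.0014) and 0.60 (adjusted p = 0.0015). Relative to the median of all genes they were 0.17, 0.01 and 0.27, and none of the 3 passed the test there (adjusted p = 0.082, 0.95 and 0.073). With median-centred arrays the second probe set also lost its call (0.17, adjusted p = 0.14).

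Fshr, the FSH receptor, is the most Sertoli-restricted receptor among these genes. Its probe set gave 543.0, 468.4 and 538.7 in Fn, against 251.4, 281.4 and 245.3 in Wt testes. The groups stood well apart, with a ratio of 1.99 and a difference of 0.99 on the log2 scale (standard error 0.14, adjusted p = 0.00019 from limma). Set against the shift of all genes, it was 0.67 (adjusted p = 0.0025).

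The 2 activin receptor genes gave no common direction. Acvr1b, the type I receptor ALK4, gave 1034.2, 1150.1 and 888.0 in Fn, against 1042.5, 1270.8 and 1107.4 in Wt testes (1433725_at). The groups overlapped and the log2 change was -0.16 (standard error 0.13, 95% confidence interval -0.45 to 0.13, adjusted p = 0.30 from limma), while relative to the median of all genes it was -0.48 (adjusted p = 0.011). Its second probe set (1422098_at), at 11.4, 63.4 and 37.6 in Fn and 38.9, 65.5 and 35.0 in Wt testes, was too dim to be tested.

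Acvr2a, the type II receptor, was read by 2 probe sets of similar brightness that opposed each other. The first (1437382_at) gave 739.9, 731.6 and 778.7 in Fn, against 610.8, 540.0 and 487.5 in Wt testes, higher by 0.46 on the log2 scale (adjusted p = 0.0084 from limma, and 0.10 with median-centred arrays). The second (1451004_at) gave 434.4, 437.5 and 429.7 in Fn, against 528.0, 540.2 and 573.0 in Wt testes, lower by 0.33 (log2 change -0.33, adjusted p = 0.029). Neither overlapped between genotypes. Set against the shift of all genes, the first was at 0.14 (adjusted p = 0.37) and the second at -0.66 (adjusted p = 0.0011). The call of the second on the deposited scale was lost when Fn replicate 1, 2 or 3 or Wt replicate 2 or 3 was left out, with adjusted p-values of up to 0.077, while the log2 change stayed at -0.34 to -0.30 in these fits. The positions of the 2 probe sets along the gene were not analysed here, so the gene has no single direction, although it counts as higher by its brightest probe set.

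Gata4 gave 876.6, 747.2 and 1016.9 in Fn, against 496.6, 497.5 and 484.7 in Wt testes with its brighter probe set (1418863_at), and 337.5, 270.1 and 494.3 in Fn, against 172.0, 170.1 and 212.7 in Wt testes with the other (1418864_at). With both probe sets the Fn signals were spread and all lay above the Wt signals, with ratios of 1.77 and 1.93. The log2 changes were 0.83 (adjusted p = 0.00053 from limma) and 0.95 (adjusted p = 0.0046), and relative to the median of all genes 0.50 (adjusted p = 0.011) and 0.63 (adjusted p = 0.040). Leydig cells also express Gata4. The summed signal of 5 Leydig cell markers overlapped between genotypes, at 6345.3 to 12235.1 in Fn and 6260.1 to 10304.8 in Wt testes. Of these 5, 3 were higher, beside 44.9% of all genes, and relative to the median of all genes 0 were, beside 25.8%. The part of Leydig cells in the Gata4 signal was not tested.

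**Figure D2:**
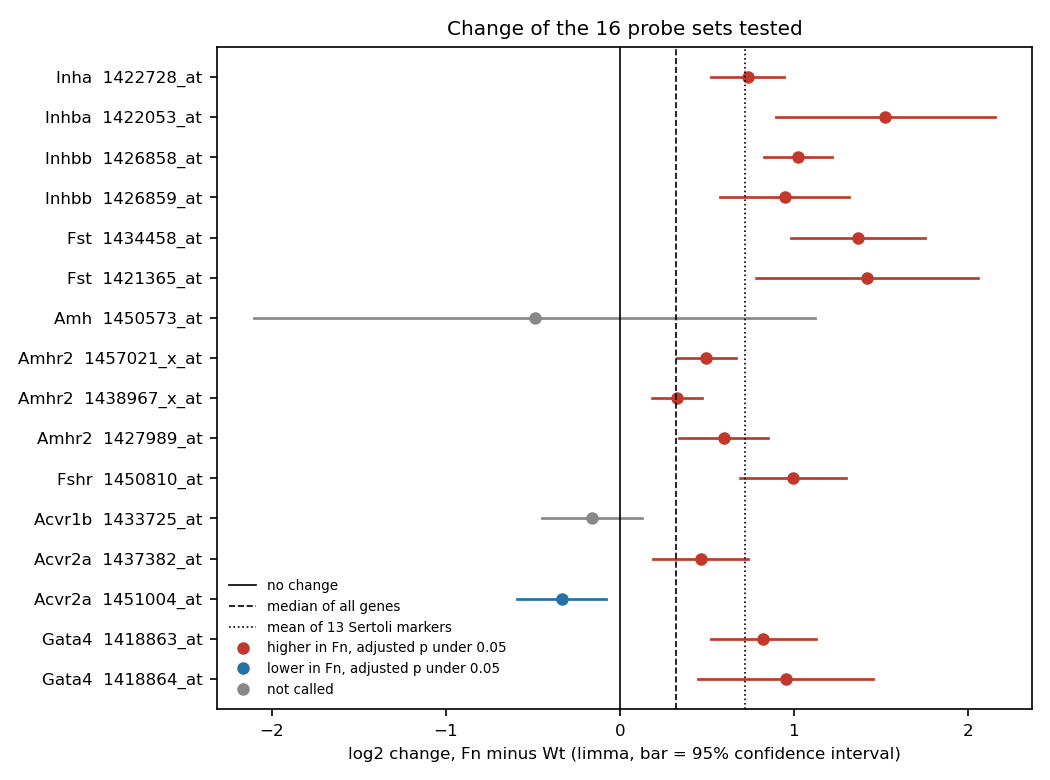
Log2 change, Fn minus Wt, of the 16 probe sets tested, with the 95% confidence interval from limma. Lines mark no change, the median of all genes at 0.32 and the mean of 13 other Sertoli cell markers at 0.72. Inhba, Inhbb and Fst lie to the right of the Sertoli marker mean, Inha lies on it, and the 3 Amhr2 probe sets lie on the line for all genes or between it and the marker mean.

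These genes were next set beside other genes of the Sertoli cell. All 13 Sertoli markers tested that are not among the 10 genes were higher in Fn, beside 44.9% of all genes. Their log2 changes were 0.36 to 1.84, with a mean of 0.72, and their summed signal was 109203 to 112741 in Fn and 73107.8 to 83868.9 in Wt testes. Relative to the median of all genes 7 of the 13 were higher and 0 lower, against 25.8% of all genes higher and 33.9% lower. Wt1, a transcription factor of Sertoli cells, was at 0.76, Rhox5, an androgen-regulated homeobox gene of these cells, at 0.83 and Kitl, the ligand of the KIT receptor on spermatogonia, at 1.02. With each array centred on the mean of these markers, 2 of the 10 genes were higher in Fn and 2 lower, against 5.89% of all genes higher and 47.7% lower, and the median of the 10 was 0.06 beside -0.40 for all genes. Inha was then at 0.01 (95% confidence interval -0.16 to 0.19, adjusted p = 0.90 from limma), Gata4 at 0.11 (-0.18 to 0.40, adjusted p = 0.54) and Fshr at 0.27 (-0.02 to 0.57, adjusted p = 0.12). Fst was higher than the markers by 0.65 (adjusted p = 0.011) and Inhbb by 0.31 (adjusted p = 0.012), while the second probe set of each was at 0.70 (adjusted p = 0.069) and 0.23 (adjusted p = 0.34). Inhba was at 0.81 (adjusted p = 0.052). Lower than the markers were Acvr1b, at -0.88 (adjusted p = 0.00059), and Amhr2, at -0.22 (adjusted p = 0.047) with its brightest probe set. The other 2 probe sets of Amhr2 were at -0.39 (adjusted p = 7e-04) and -0.12 (adjusted p = 0.39). Of the 2 opposed Acvr2a probe sets, the brighter was at -0.26 (adjusted p = 0.10) and the other at -1.05 (adjusted p = 1e-04). Whether the Acvr1b and Acvr2a signals come from Sertoli cells alone was not tested.

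The size of the excess of Fst and Inhbb over the markers depended on the choice of markers. The 7 dimmer markers rose by a mean of 0.94 and the 6 brighter by 0.46. Relative to the dimmer ones Fst was at 0.42 (adjusted p = 0.079 from limma) and Inhbb at 0.08 (adjusted p = 0.51), and relative to the brighter ones at 0.91 (adjusted p = 0.0018) and 0.57 (adjusted p = 0.00054). Without Fn replicate 1 the excess over all 13 markers was about as large, at 0.60 for Fst and 0.31 for Inhbb, although both missed the threshold (adjusted p = 0.056 and 0.052). The call of the brightest Amhr2 probe set, at -0.22, was lost when Fn replicate 1 or 3 or Wt replicate 2 or 3 was left out (-0.21 to -0.17, adjusted p of 0.099 to 0.21) and in the fit with the replicate block (adjusted p = 0.070), whereas Acvr1b stayed lower under each of these settings, at -1.10 to -0.62. Brightness also moved with the size of the change among all genes: their median change was 0.37, 0.51, 0.41, 0.25 and 0.09 in 5 equal groups of genes in order of increasing signal. Fst and Inhba are dim and Inha and Amhr2 bright, and the part of brightness in their differences was not tested.

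**Figure D3:**
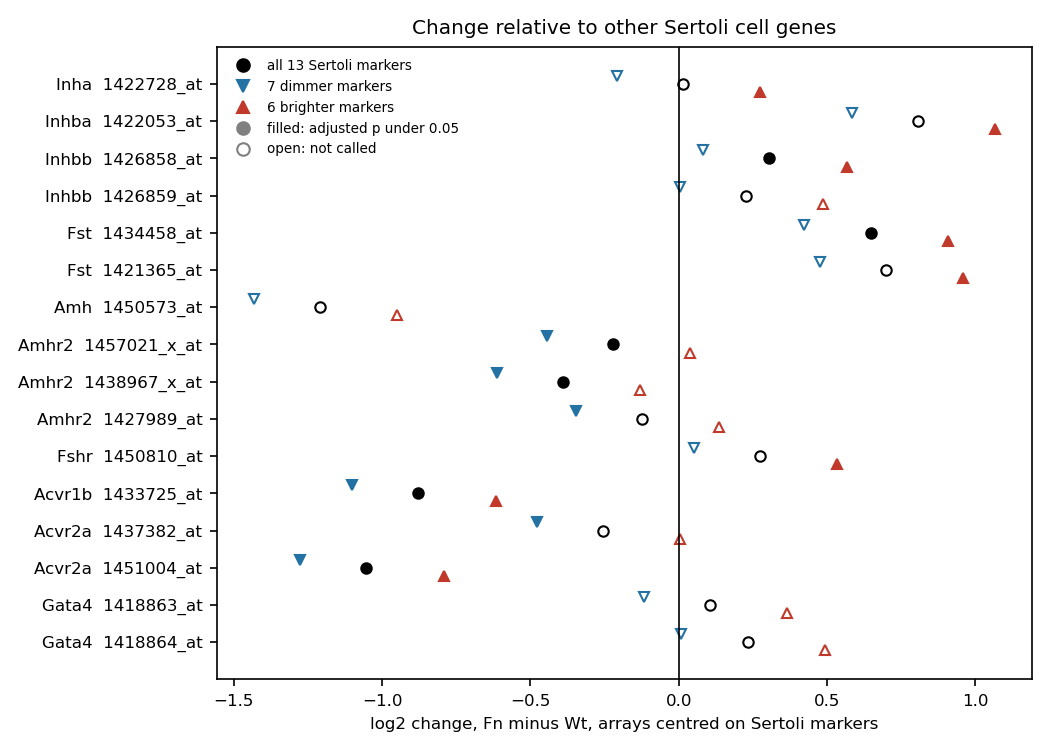
Log2 change, Fn minus Wt, of the 16 probe sets after centring each array on the mean of all 13 Sertoli markers (circles), of the 7 dimmer ones (triangles down) or of the 6 brighter ones (triangles up), with filled symbols at an adjusted p under 0.05. Acvr1b and the lower Acvr2a probe set are left of 0 with filled symbols throughout, Fst and Inhba are right of 0 throughout with some symbols open, and Inha and the brighter Gata4 probe set change sides with the markers used.

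The other genes of these pathways were described by lists, on the deposited scale. Of 9 other activin, BMP and TGF-beta receptor and co-receptor genes tested, 8 were higher in Fn, 0 lower and 1 not called, with a median log2 change of 0.93 beside 0.32 for all genes. Bmpr2, a type II receptor for BMPs that also binds activins, gave 3256.2, 2961.5 and 3051.3 in Fn, against 1283.8, 1365.7 and 1069.9 in Wt testes (log2 change 1.32, adjusted p = 8.6e-06 from limma). Bmpr1a, a type I receptor for BMPs and AMH, was at 0.93 and Tgfbr2, the type II receptor for TGF-beta, at 0.98. With the replicate block Bmpr1b lost its call (adjusted p = 0.046 without and 0.060 with the block) and Bambi gained one (0.078 without and 0.047 with it).

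The SMAD genes, which carry the signal of these receptors to the nucleus, were split. Of 8 tested, 4 were higher in Fn, 3 lower and 1 not called, with a median of 0.42. Smad3, the effector of activin and TGF-beta receptors, gave 879.0, 782.7 and 880.8 in Fn, against 420.4, 384.1 and 394.0 in Wt testes (log2 change 1.08), and Smad4, the partner of all receptor-activated SMADs, was at 0.97. The 3 lower ones act in BMP and AMH signalling. Smad5, which acts there too, was the 1 not called (log2 change 0.202, adjusted p = 0.13 from limma). Its signals were 910.5, 931.7 and 909.2 in Fn, against 780.3, 870.7 and 746.2 in Wt testes. Smad1 gave 1026.2, 976.9 and 1019.7 in Fn, against 1674.3, 1867.3 and 1791.1 in Wt testes (log2 change -0.82). Smad6, also an inhibitory SMAD, gave 119.8, 125.5 and 104.1 in Fn, against 351.8, 311.3 and 323.5 in Wt testes (-1.50). Smad7, another inhibitory SMAD, was higher, at 311.4, 244.7 and 269.8 in Fn, against 133.1, 123.8 and 155.5 in Wt testes. Smad9, at -1.19, was dim, with 48.0, 29.7 and 43.4 in Fn, against 103.5, 81.7 and 86.0 in Wt testes. Its Fn signals were at or under the 48.0 needed on average, so Smad9 passed the filter through its Wt signals. In each of the 3 lower SMADs every Fn signal lay below every Wt signal, as in 22.1% of all probe sets tested. Male germ cells express several SMADs, and the germ cell markers below moved in both directions between genotypes.

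Of 18 genes for other ligands of the superfamily and their binding proteins, 9 were bright enough to be tested, of which 7 were higher in Fn, 1 lower and 1 not called (median 0.81). Bmp4 was at 1.40 and Tgfb3 at 0.76. The 1 that was lower was Gdf9, a growth factor best known from oocytes, at 159.6, 160.1 and 104.6 in Fn, against 444.2, 406.3 and 491.2 in Wt testes (log2 change -1.68, adjusted p = 8.0e-05 from limma). Of 13 genes for the coupling of the FSH receptor and its cAMP response, 11 were higher, 0 lower and 2 not called (median 0.70), and with the replicate block Junb was also higher (adjusted p = 0.041). Plat, tissue plasminogen activator and an FSH-induced Sertoli product, was at 1.12, Gnas, the stimulatory G protein alpha subunit, at 0.59 and Appl1, an adaptor of the FSH receptor, at 0.70. Of 11 other gonadal transcription factors, 8 were higher, 0 lower and 3 not called (median 0.76). Dmrt1, a factor of Sertoli cells and spermatogonia, was at 1.05, Gata1, another GATA factor of Sertoli cells, at 1.03 and Nr0b1 at 0.97. The 3 not called were the GATA cofactors Zfpm1 (0.01, adjusted p = 0.96) and Zfpm2 (-0.10, adjusted p = 0.62) and the LIM homeobox gene Lhx9 (-0.04, adjusted p = 0.86). Wt1 and Sox9 stand both in this list and among the Sertoli markers. These counts are to be read beside the 44.9% of all genes that were higher. Relative to the median of all genes, 7 of the 9 receptors, 4 of the 8 SMADs, 5 of the 9 ligands and binding proteins, 5 of the 13 FSH genes and 7 of the 11 transcription factors were higher, and 3 SMADs and Gdf9 were lower. On that scale 25.8% of all genes were higher and 33.9% lower. With the arrays centred on Sertoli markers, which takes 0.72 from every change, the list medians were 0.21, -0.29, 0.09, -0.02 and 0.04 in the same order, beside -0.40 for all genes.

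**Figure D4:**
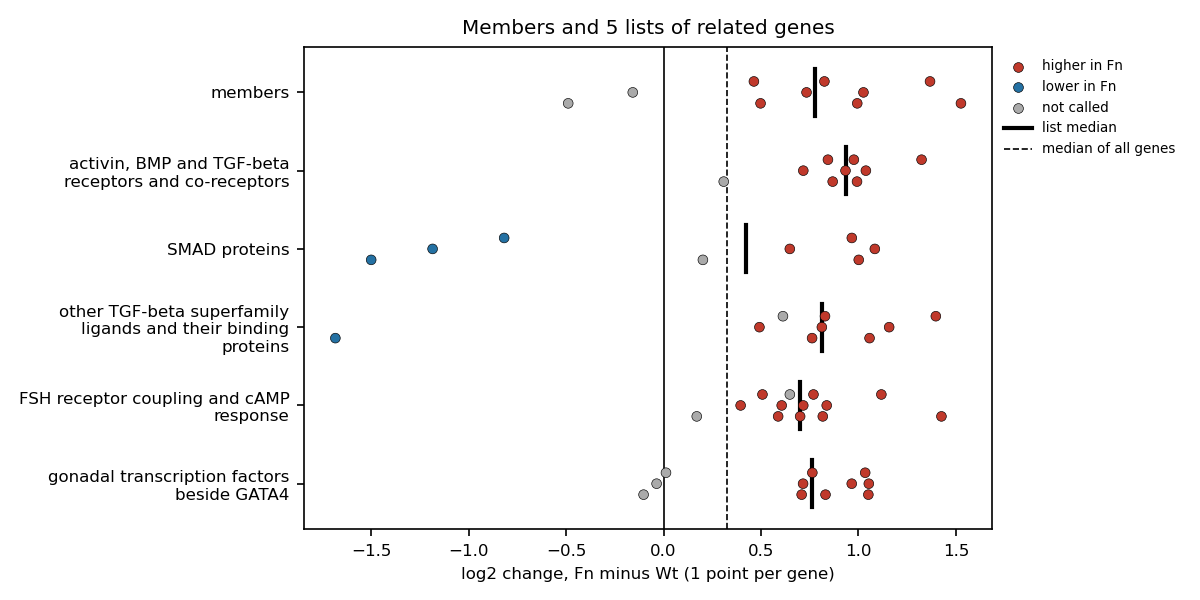
Log2 change, Fn minus Wt, of the 10 genes (members) and of 5 lists of related genes, 1 point per gene tested, coloured by the limma call at an adjusted p under 0.05, with a bar at the list median. The list medians run from 0.42 for the SMADs to 0.93 for the receptors, all above the 0.32 of all genes on the deposited scale, and the calls in the lower direction are 3 SMADs and Gdf9.

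Germ cell markers of different stages moved in opposite directions. The summed signal of 7 pachytene spermatocyte markers was 14746.1 to 20987.2 in Fn and 59820.5 to 63414.7 in Wt testes. All 7 were lower (median log2 change -1.93), although the study had already picked Ccna1, Piwil1 and Ovol1 as lower on these arrays. Of 7 spermatid markers 3 were too dim to be tested. Of the other 4, 3 were lower (4 of 4 with the replicate block), beside 24.7% of all genes. Prm1 and Prm2 overlapped between genotypes. Ccna1, Acrv1 and Prm2 passed the filter through their Wt signals, with mean Fn signals of 31.2, 26.9 and 30.5. In contrast, 6 of 6 spermatogonial markers were higher (median 0.84). Among other somatic cells, 3 of 5 Leydig cell markers (median 0.48), 4 of 6 peritubular myoid cell markers (0.54), 3 of 6 macrophage markers (0.35, with Aif1 lower at -1.06) and 2 of 6 endothelial markers (0.49) were higher, beside 44.9% of all genes. Relative to the median of all genes 0 of the Leydig, 3 of the myoid, 0 of the macrophage and 1 of the endothelial markers were higher, beside 25.8% of all genes. On that scale 4 of 6 spermatogonial and 3 of 5 adipocyte markers were also higher. All 7 pachytene and all 4 spermatid markers tested were lower there, against 33.9% of all genes. The adipocyte markers had a median of 1.80. Of 4 epididymis markers 0 were higher and 1 lower, while with the replicate block 2 were higher, Spink8 (log2 change 1.05, adjusted p = 0.0021) and Lcn5 (1.56, adjusted p = 0.025). The endothelial count was 1 with that block. The part of cell composition in the changes of the 10 genes was not tested.

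**Figure D5:**
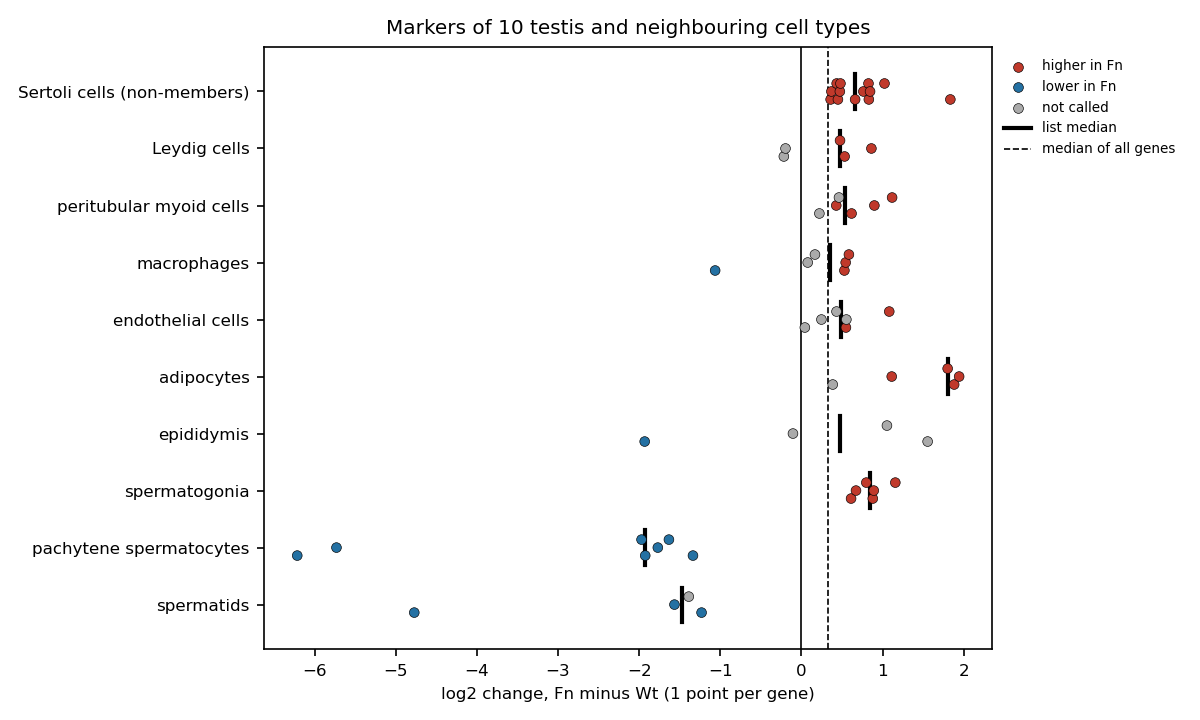
Log2 change, Fn minus Wt, of the markers of 10 cell types, 1 point per gene tested, coloured by the limma call, with a bar at the list median and a dashed line at the 0.32 of all genes. Every point of the Sertoli cell list and of the spermatogonia list is right of that line, and every point of the pachytene spermatocyte and spermatid lists is left of 0.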

How the data were processed

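Total RNA of whole P21 testes was measured on 3 Fn and 3 Wt arrays. The values deposited by the authors were MAS5 signals, intensity on a linear scale for each probe set, already scaled to one level (trimmed mean of 498.8 to 499.5 without the highest and lowest 2%). Detection calls were not analysed here. By the annotation of the platform, 34945 probe sets named 1 gene, 932 several and 9160 none; 1 probe set that names a member together with another gene was not used. The 1 value of 0 was set to 0.1. Log2 signals were fitted with limma 3.58.1 in R 4.3.3 (lmFit, eBayes with an intensity trend, two-sided), with a filter at the 40th percentile of mean log2 signal. Changes relative to all genes were tested against the 0.32 shift with the same error. Sertoli centring subtracted the mean log2 signal of 13 markers from each array. Same-numbered Fn and Wt arrays deviated together (correlations of 0.131, 0.123 and 0.159, against -0.15 to 0.0351 for other pairs), so the numbers may pair the samples, by this check and not by a statement of the study. The p-values given are from the fit without pairing unless the replicate block is named. The number of arrays limits the precision, and replicates of a genotype correlated at 0.951 to 0.961 (Spearman). The fit was tested on simulated data. Members, lists and the rule for named genes (all member probe sets, Dazap1, up to 3 genes of a list with the smallest p and those that move against it) were chosen with earlier results of these data known; the few further list genes in the text were picked with their values known. Alternatives covered scaling, filter, a pseudocount of 16, prior variance, array weights, the mean of the probe sets of a gene, the replicate block and leaving out each array.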

Additional observations from a re-analysis of the deposited data

How the results depend on the processing

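The count of 8 genes higher in Fn was 7 to 8 under quantile normalization, median and 75th percentile centring, other filters, the pseudocount, no intensity trend, array weights, the replicate block and leaving out each array, and 6 with the mean of the probe sets of a gene. The median of the 10 genes, 0.78, was 0.62 with median centring, 0.65 with 75th percentile centring, 0.46 relative to the median of all genes and 0.70 to 0.84 when each array was left out. Probe sets lower were 0 to 1 without an array and 2 relative to all genes, where 1 gene was lower. With the arrays centred on Sertoli markers, 2 probe sets and 2 genes were higher, 4 probe sets and 2 genes lower and the median 0.060, because that scaling takes 0.72 from every change and puts the median of all genes at -0.40. Directions then turned for Amhr2 (-0.22, -0.39 and -0.12), Acvr2a (-0.26), Gnas (-0.13) and Appl1 (-0.019). Amh turned to 0.086 with array weights, and ran from -0.99 without Fn replicate 3 to 0.49 without Fn replicate 2; the cause was not tested.

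Relative to the 7 dimmer markers, chosen after seeing the data, 0 genes were higher and 3 lower. The median was then -0.16, beside -0.62 for all genes, with Inha at -0.21 and Gata4 at -0.12. Relative to the 6 brighter ones 5 genes were higher and 1 lower. The median was then 0.32, beside -0.14 for all genes, with Amhr2 at 0.038 and 0.14 and Acvr2a at 0.0042. With the replicate block 1 gene was lower relative to all markers. Leaving out each array gave 0 to 3 genes higher, 1 to 2 lower, a median of 0.0068 to 0.095 and Inha at -0.026 to 0.055, with -0.012 and -0.0020 among them. On the deposited scale the replicate block changed no call of the 10 genes. Inhba could not be tested with the filter at the 50th percentile, and without detection calls its Wt level has no check against background.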
